A study of Mus musculus with 4 samples.

Results

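The cells described here are perivascular cells of the developing mouse kidney that carry Pdgfrb and Rgs5 transcripts, have no UMI of the smooth muscle myosin gene Myh11 or the endothelial gene Pecam1, and few of the renin gene Ren1. A cell was a member when it had at least 500 genes and at most 20% mitochondrial UMIs, with Pdgfrb at 1 UMI or more, Rgs5 at 2 or more, Myh11 at 0, Ren1 below 10 and Pecam1 at 0. A UMI is a counted RNA molecule. These thresholds chose 954 of the 22838 cells that passed the gene and mitochondrial filters. Members were thus selected on the UMIs of these 5 genes, so their levels are given only as a description.

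The series followed maturation of the kidney with droplet single-cell RNA counts, 1 library per group. The E15.5 and P0 kidneys were from ICR mice and the E17.5 kidneys from C57BL/6 mice. The transplant library came from C57BL/6N kidneys taken at E12.5 and kept for 12 days in the epididymal fat of a host. All carry the genotype label wild type. The host is an immunodeficient NOD mouse by the design text and C57BL/6N by the label for its strain, a conflict that could not be settled. How many animals were pooled is not given in the sources used here. Age, strain, site and host cannot be told apart for the transplant, and strain and age cannot be told apart for E17.5. Where 4 values follow each other below, they run from E15.5 through E17.5 and P0 to the transplant. With 1 library per group no test between groups was possible, and intervals between libraries cover counting error only.

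Pericytes sit on the wall of capillaries inside the basement membrane they share with the endothelium. They are drawn there by endothelial PDGF-B acting on the receptor encoded by Pdgfrb, and Rgs5, a regulator of G protein signalling, is a usual marker of them. Mesangial cells are the specialised pericytes of the glomerulus. They hold the capillary loops together, lay down the mesangial matrix, answer angiotensin II and depend on the transcription factor Gata3 and the integrin subunit Itga8.

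The E15.5 library held 134 members in 3565 cells (3.76%, exact Clopper-Pearson 95% interval 3.16 to 4.44) and the E17.5 library 180 in 4563 (3.94%, 3.40 to 4.55). P0 held 353 in 8092 (4.36%, 3.93 to 4.83) and the transplant 287 in 6618 (4.34%, 3.86 to 4.86). The intervals of the 4 libraries overlap. Depth sets how easily a cell passes the rule: the members' median was 18511, 5708.5, 6960 and 5994 UMIs. When every cell was first thinned to 3000 UMIs, the share was 0.791%, 2.13%, 2.04% and 3.09% (27, 89, 150 and 147 cells). The E15.5 share was then the lowest, and its interval of 0.522 to 1.15% did not reach those of the other libraries. Just inside the Rgs5 threshold, 37, 42, 70 and 43 members had exactly 2 Rgs5 UMIs. Just outside it, 87, 35, 96 and 56 cells met every other condition with 1 Rgs5 UMI. Cells that met all conditions but Pdgfrb numbered 30, 141, 190 and 146, and 0, 13, 16 and 70 were left out only for their renin UMIs. Myh11 alone left out 11, 3, 11 and 15 cells with 1 UMI of it and 14, 6, 12 and 34 cells with more.

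The label was checked against markers that the rule did not use. Higd1b, a mitochondrial protein gene known from pericytes of several organs, was measured in E15.5 members at 1.40 CPM (the UMIs of a gene scaled to a common total of all UMIs), from 4 UMIs. Its level was 33.7 CPM in the E17.5 library, 39.9 in P0 and 18.4 in the transplant. Only 4 of 134, 14 of 180, 45 of 353 and 25 of 287 members carried a Higd1b UMI, so this marker was sparse at every age. The 6 pericyte markers outside the rule (Higd1b, Cspg4, Kcnj8, Abcc9, Notch3, Mcam) summed to 357, 691, 700 and 660 CPM in members against 50.9, 64.9, 68.6 and 85.0 in all other cells. Each of the 6 was higher in members in each of the 4 libraries. The 5 mesangial markers (Gata3, Itga8, Agtr1a, Serpine2, Art3) summed to 421, 1090, 1194 and 4263 CPM in members against 142, 190, 160 and 408 elsewhere, and all 5 were higher in members in each library. The 6 smooth muscle markers (Acta2, Tagln, Cnn1, Myl9, Lmod1, Actg2) also summed higher in members, at 833, 2149, 1559 and 6774 CPM. Other cells had 348, 389, 476 and 984 CPM. Of these 6 markers, 3, 3, 3 and 5 were higher in members. These data give both names some basis in every library, at E15.5 with very little Higd1b. The sums alone do not separate members from smooth muscle.

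Transcripts of other cell types were present in members at the following levels. Stromal markers (7 genes) summed to 2574, 1959, 1647 and 2250 CPM in members, above the 893, 496, 339 and 911 CPM of other cells. Endothelial markers (7 genes) summed to 137, 173, 165 and 311 CPM, below the 291, 669, 632 and 827 CPM elsewhere. Epithelial markers (Epcam, Cdh1, Krt18) summed to 75.9, 48.8, 156 and 84.2 CPM in members and 269 to 800 in other cells. Podocyte markers (7 genes) summed to 996, 1300, 597 and 1045 CPM in members against 1264, 1500, 904 and 2569 elsewhere. Cdkn1c, which is among the 7 and on the imprinted list, accounts for 958, 1057, 469 and 809 CPM of the members' sums. Erythroid markers stood at 766, 10.1, 14.2 and 414 CPM in members, and proximal tubule markers at 11.2, 146, 127 and 237. Akr1b7, a marker of renin cells, was at 138, 172, 166 and 664 CPM. Among cells with 2 or more Epcam UMIs, 0.208 to 0.405% met the rule. Scrublet, a doublet caller, marked 43, 4, 2 and 0 cells of the whole libraries by its own threshold, too few at P0 and in the transplant for the caller to have worked. Removing instead the cells with the highest Scrublet scores, 0.8% per 1000 cells (102, 167, 524 and 350 cells), would take 2, 10, 30 and 12 members. No barcode was shared between members of different libraries except 2 of E17.5 and P0. The part of other cell types in the results below was not tested beyond the values given beside them.

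The genes on which the results turn lie, in GRCm38 coordinates of GENCODE M21, as follows. Gata3 (ENSMUSG00000015619) spans chr2:9857078-9890034 on the minus strand. Agtr1a (ENSMUSG00000049115) spans chr13:30336441-30382867 on the plus strand. Kcnj8 (chr6:142564837-142571614) and Abcc9 (chr6:142587862-142702315), the subunits of 1 channel, are neighbours on the minus strand. Counts come from the 3′ end of the transcripts and do not tell isoforms apart.

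**Figure D1:**
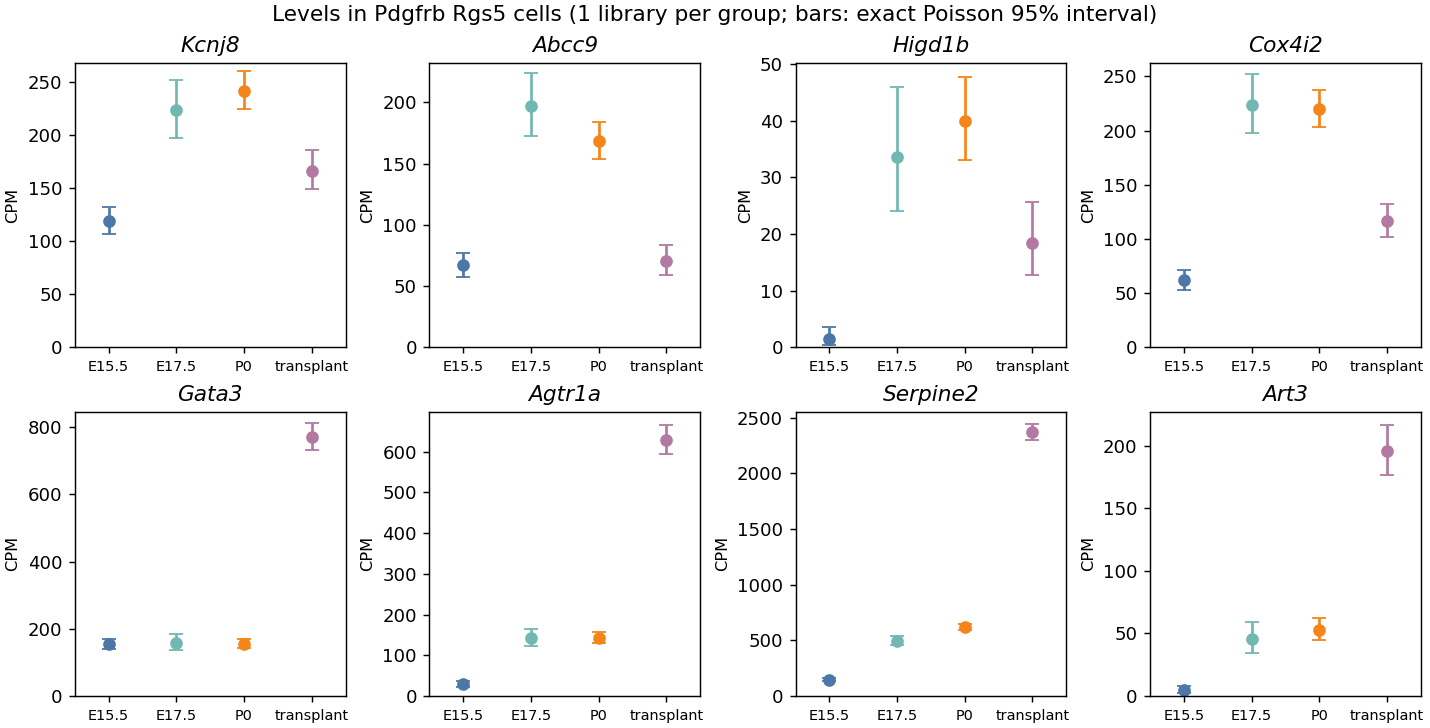
Levels of 8 genes in the members of each library, in CPM of the members' summed UMIs, with exact Poisson 95% intervals as bars. Kcnj8, Abcc9 and Cox4i2 are highest at E17.5 or P0 and lower in the transplant, while Gata3 is level at 154 to 159 CPM in the kidneys in situ and at 772 in the transplant.

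The first question was how members differ from the mural and stromal cells around them. A pair of gated populations served for comparison, in the same libraries: smooth muscle-type cells (Myh11 and Acta2 at 2 UMIs or more; 58, 44, 55 and 83 cells) and Rgs5-negative stromal cells (Pdgfrb at 1 or more, Rgs5 and Epcam 0, Col3a1 at 2 or more; 315, 64, 128 and 90 cells). UMIs were summed per library and type and tested with edgeR's quasi-likelihood test with the library as a block, so the 4 libraries were the replicates. Of 9227 genes tested against smooth muscle-type cells, 725 (7.86%) passed an adjusted p of 0.05, with 273 (2.96%) higher and 452 (4.9%) lower in members. Against stromal cells 512 of 9226 (5.55%) passed, 304 (3.3%) higher and 208 (2.25%) lower. Both contrasts share the members. The counts depended most on E17.5 and P0. Leaving out E17.5 gave 105 higher and 246 lower genes against smooth muscle-type cells and 137 and 51 against stroma, and leaving out P0 gave 115 and 253, and 90 and 54.  Genes that follow Myh11, Acta2 or Rgs5 from cell to cell are not independent of the gates, and the gate genes themselves are not results.

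The pericyte list was higher in members than in Rgs5-negative stroma for 14 of its 17 tested genes, with a median log2 fold change of 1.86 against 0.00 over all genes. Against smooth muscle-type cells 4 of the 17 were higher (median 0.51). Kcnj8, the pore-forming subunit of an ATP-sensitive potassium channel, was 1 of 4 genes of this list higher than in both neighbours, with Abcc9, Gucy1b1 and Ebf1. It stood at 119, 223, 241 and 166 CPM. Smooth muscle-type cells had 20.04, 86.2, 83.2 and 63.0 CPM and stroma 20.8, 97.4, 114 and 14.2. Members were higher than both in all 4 libraries, by a log2 fold change of 1.67 against smooth muscle (SE 0.314, adjusted p = 5.01e-03) and 1.83 against stroma (SE 0.301, adjusted p = 3.43e-03). Abcc9, the sulfonylurea receptor subunit of the same channel, was at 66.8, 197, 168 and 70.5 CPM in members and at 10.0, 79.9, 81.4 and 32.4 in smooth muscle-type cells. Its log2 fold change was 1.46 against smooth muscle (SE 0.299, adjusted p = 8.49e-03) and 2.005 against stroma (adjusted p = 1.65e-03).

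Several other genes of this list separated members from stroma and not, at this test, from smooth muscle. Mcam, an adhesion molecule of mural cells, stood at 57.7, 101, 142 and 239 CPM in members and 13.5, 14.8, 19.2 and 5.33 in stroma (log2 fold change 2.88, SE 0.325, adjusted p = 4.17e-04). The groups did not overlap. Ndufa4l2, a mitochondrial complex subunit induced by hypoxia (2.05, adjusted p = 2.48e-04), and the Notch receptor gene Notch3 (1.72, adjusted p = 3.04e-03) followed. Their values against smooth muscle were 0.18 and -0.38, neither of which passed. Higd1b was higher in members than in stroma (4.63, SE 0.811, adjusted p = 5.10e-03), with 0 UMIs in stroma in 3 libraries. Without P0 that difference was 3.47 and no longer passed (adjusted p = 0.123). Against smooth muscle Higd1b differed by -0.66 (adjusted p = 0.428).

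Of the 11 genes of the mesangial list, 6 were higher than in smooth muscle-type cells and 7 higher than in stroma, and Thy1, a surface glycoprotein of fibroblasts and lymphocytes, was lower in both contrasts (-2.46, adjusted p = 1.73e-04, and -2.37, adjusted p = 6.70e-04). The median log2 fold changes were 1.4995 and 2.40. Gata3 stood at 154, 159, 156 and 772 CPM in members, 51.6, 16.0, 39.7 and 116 in smooth muscle-type cells and 20.05, 20.7, 14.4 and 21.3 in stroma. Every library had more Gata3 in members than in either neighbour, by 2.21 on the log2 scale against smooth muscle (SE 0.277, adjusted p = 2.81e-04) and 3.58 against stroma (SE 0.298, adjusted p = 6.66e-05). Endothelial cells of the same libraries had 17.1, 2.75, 5.78 and 28.3 CPM of Gata3. Agtr1a, the type 1 angiotensin II receptor, was at 29.0, 142, 143 and 629 CPM in members against 6.17, 25.6, 11.4 and 174 in smooth muscle-type cells (2.27, SE 0.217, adjusted p = 3.41e-05). Art3, an ecto-ADP-ribosyltransferase gene, stood at 4.55, 45.4, 53.1 and 196 CPM in members against 0.313, 0, 2.88 and 3.55 in stroma (4.76, SE 0.462, adjusted p = 1.63e-04).

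Serpine2, a protease inhibitor, separated members from smooth muscle-type cells (147, 496, 618 and 2368 CPM against 67.1, 125, 269 and 603; log2 fold change 1.4995, adjusted p = 6.16e-05). It did not separate them from stroma, where it stood at 126, 478, 636 and 1769 CPM (0.13, adjusted p = 0.748). The homeobox-related gene Hopx and the vessel-destabilising ligand Angpt2 were higher than in stroma by 3.44 and 2.73. Against smooth muscle they differed by 0.86 (adjusted p = 0.24) and 0.998 (adjusted p = 0.078), which did not pass. Renin cells, gated by 10 or more Ren1 UMIs, carried several of the same transcripts. They had 114, 227, 226 and 589 CPM of Gata3 and 12.6, 192, 112 and 501 of Agtr1a, from 9, 37, 64 and 164 cells.

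**Figure D2:**
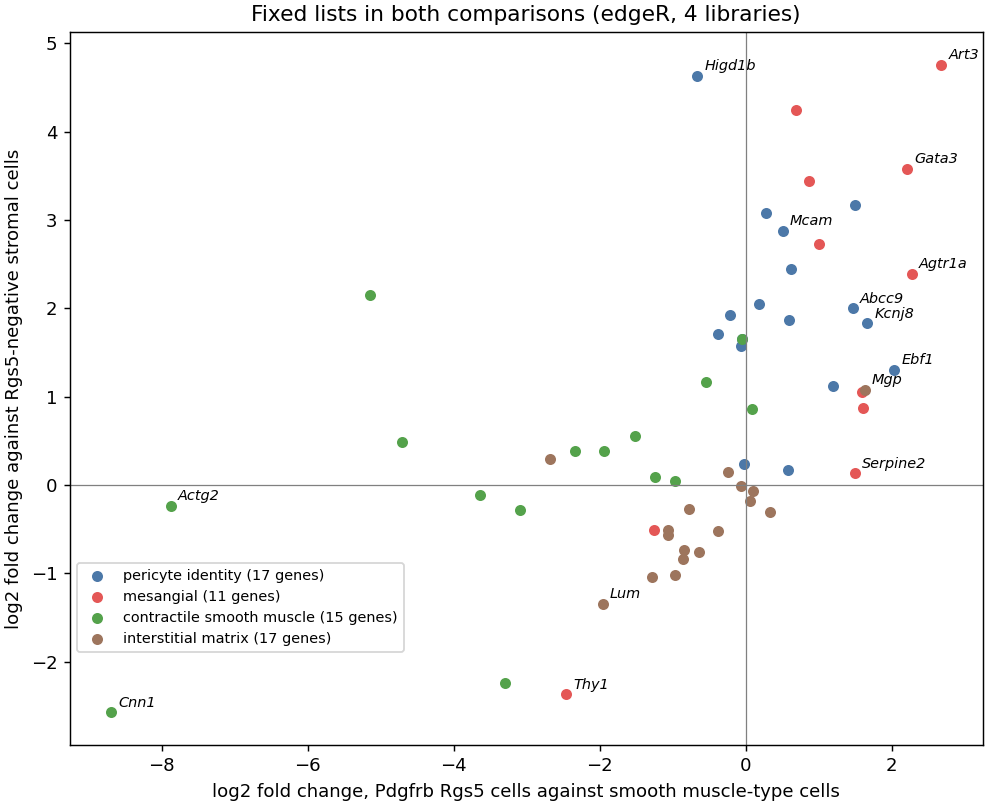
Log2 fold change of members against smooth muscle-type cells (horizontal) and against Rgs5-negative stromal cells (vertical) for the genes of 4 lists, from edgeR fits over the 4 libraries. Contractile genes lie far to the left, and mesangial genes such as Gata3, Agtr1a and Art3 lie up and to the right.

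Genes of the contractile apparatus were lower in members than in smooth muscle-type cells for 12 of 15 tested, with a median of -2.34. The smooth muscle-type gate used Myh11 and Acta2, so this direction comes with the gate. Cnn1, the calponin of mature smooth muscle, had 1.40, 0, 1.69 and 1.58 CPM in members and 291, 639, 812 and 571 in smooth muscle-type cells (-8.69, SE 0.283, adjusted p = 2.55e-09). Other genes were not absent from members. Acta2 was at 278, 1215, 801 and 3366 CPM, in 105, 136, 253 and 233 members, and the smooth muscle-type cells had 3599 to 8764 CPM. Cald1, an actin-binding caldesmon, did not differ past the test (0.08, adjusted p = 0.83). By the rule of largest change, the genes with the strongest excess over smooth muscle were Lbhd2, Clca3a1, Nostrin, Dkk1, Cxcl1, Cpm, Shisa3, Mbnl3, Gprin3 and Plvap. Nostrin, a gene for trafficking of endothelial nitric oxide synthase, stood at 47.6, 147, 139 and 235 CPM in members against 0.771, 3.19, 0 and 27.3 (4.15, SE 0.528, adjusted p = 3.11e-04). Dkk1, a secreted Wnt antagonist, was at 66.5, 50.5 and 47.7 CPM in the kidneys in situ and at 1.05 CPM, 2 UMIs, in the transplant. Plvap is an endothelial gene, and in members it reached 144 CPM in the transplant, where endothelial markers were also highest. The calls for Mbnl3 and Gprin3 were lost without E17.5 or without P0. Below smooth muscle, after Cnn1, came Actg2, Tnnt2, Acta1, Car3, Fbxl22, Actc1, Sh3bgr, Dpp6 and Slc17a8. Among these, Actg2, Acta1 and Actc1 encode muscle actins and Tnnt2 a troponin.

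Against stroma the strongest excess was in Art3, Slco2a1, Serpini1, Akr1b7, Higd1b, Tinagl1, Dgkb, Lmo7, P2rx1 and Htra4. Akr1b7, an aldo-keto reductase of renin cells, stood at 138, 172, 166 and 664 CPM in members against 11.6, 2.95, 0.961 and 3.55 in stroma (4.64, SE 0.464, adjusted p = 2.05e-04). Renin cells carried more of it, 1300 to 3091 CPM. Lmo7, an actin-associated LIM domain protein, was at 60.2, 241, 186 and 544 CPM in members against 9.24, 5.90, 8.65 and 8.88 (4.13, SE 0.399, adjusted p = 1.63e-04). Lower than in stroma were Slc17a8, Penk, Pcdh10, Rtn1, Dach2, Cck, Col15a1, Mansc4, Gas6 and Nav3. Penk, an opioid precursor gene of medullary stroma, was at 52.5 to 75.03 CPM in members and 434 to 1314 in stroma (-3.85, SE 0.298, adjusted p = 5.39e-05). Of these lower genes, Slc17a8, Pcdh10, Rtn1, Mansc4 and Nav3 lost their call when 1 library was left out: Slc17a8 without E17.5, Rtn1 and Mansc4 without P0, Nav3 without either of these, and Pcdh10 without either or without the transplant.

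Receptors and effectors of vascular tone were compared in the same way. The tone effector list shares Gucy1a1, Gucy1b1, Rgs4, Kcnj8 and Abcc9 with the pericyte list, so the counts of these lists overlap. Of 19 tested tone effectors, 9 were higher and 1 lower than in stroma (median 0.69), against 3 higher and 3 lower than in smooth muscle. Rgs2, which shortens angiotensin signalling through Gq, was higher than in stroma by 2.60 (adjusted p = 3.88e-03). The phospholipase gene Plcb4 was lower than in smooth muscle, with a log2 fold change of -2.94 (adjusted p = 2.2e-03). Of 17 vasoactive receptors, Agtr1a, P2rx1 and Avpr1a were higher than in stroma, and 1 of the 17, Agtr1a, was higher than in smooth muscle. Ramp1, Ptger1, Tbxa2r and Npr2, genes of the CGRP, prostaglandin E, thromboxane and natriuretic peptide systems, were lower than in smooth muscle, with log2 fold changes of -4.65, -2.58, -1.82 and -1.70.

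Signals between mural cells and endothelium differed in part. The Notch list had 5 of 10 genes higher than in stroma (Notch3, Jag1, Notch1, Heyl and Nrarp; median 1.27). The ephrin ligand Efnb2 and the VEGF and semaphorin co-receptor Nrp1 were higher than in both neighbours: Efnb2 by 1.76 and 2.53, and Nrp1 by 1.56 and 1.59. The ligand gene Pdgfb was at 0.35, 10.1, 6.42 and 22.1 CPM in members and at 39.1, 88.4, 75.6 and 101 in endothelial cells. Among transcription factors Ebf1, a regulator of mesenchymal and lymphoid fates, was higher than in both (573, 771, 740 and 1130 CPM; 2.03 and 1.31). Tcf21 and Lef1 were lower than in stroma (-1.25 and -2.90), and Myocd and Tbx18, a coactivator and a factor of smooth muscle, were lower than in smooth muscle (-4.17 and -3.39). Of the interstitial matrix genes, Mgp, an inhibitor of calcification, was higher than in both (1.63 and 1.08).

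Members were then divided by Gata3. Members with at least 1 Gata3 UMI made up 37.3%, 36.7%, 43.3% and 66.2% (50 of 134, 66 of 180, 153 of 353 and 190 of 287), with an interval of 60.4 to 71.7% for the transplant. At 3000 UMIs per cell these shares were 23.9%, 25.4%, 30.8% (25.9 to 36.0) and 63.5% (57.1 to 69.4), leaving out 0, 11, 15 and 38 shallower members. The transplant stood above the others at either depth. Gata3 is also a gene of the ureteric tree, and cells with 2 or more Epcam UMIs carried it at 27.5, 26.2, 15.9 and 15.3% at that depth. Of 9004 genes tested between Gata3-positive and Gata3-negative members, with the library as a block, 640 (7.11%) passed, 311 (3.45%) higher and 329 (3.65%) lower in the positive members. Without P0 the counts were 136 and 180, and without E17.5 they were 144 and 174. Gata3 itself made the split and is no result. The positive members were deeper in each library, with a mean of 24806, 7149, 9059 and 7158 UMIs against 19253, 6287, 7864 and 5569. The part of this depth in the differences was not tested.

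Gata3-positive members carried more mesangial and less interstitial matrix transcript. Of 18 interstitial matrix genes 16 were lower in Gata3-positive members, with a median of -2.83 against 0.01 over all genes. Dcn, the collagen-binding proteoglycan decorin, stood at 51.6, 19.1, 26.7 and 113 CPM in the positive and 539, 465, 401 and 1723 in the negative members (-3.88, SE 0.161, adjusted p = 3.02e-06). Lum, the related lumican, was at 9.67, 2.12, 1.44 and 9.56 CPM against 177, 44.6, 49.0 and 300 (-4.66, SE 0.215, adjusted p = 4.25e-06). Col1a1, a chain of type I collagen, was at 321, 80.5, 81.5 and 61.0 CPM against 1172, 1003, 968 and 2284 (-3.52, SE 0.438, adjusted p = 1.48e-03). In no library did the positive members reach the negative ones for these 3 genes. Col5a2 (-0.38) and Thbs1 (-0.35) were the 2 genes of the list that did not pass. Mgp, higher in members as a whole than in their neighbours, was also lower in the positive members (273, 263, 605 and 566 CPM against 856, 1316, 2151 and 6751; -2.36, adjusted p = 1.2e-03).

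Of 10 mesangial genes tested, Agtr1a, Art3, Hopx, Nt5e and Itga8 were higher in Gata3-positive members, and Postn, a matricellular protein gene, was lower (-1.07). Agtr1a stood at 46.8, 218, 212 and 750 CPM against 15.5, 92.1, 82.7 and 326 (1.29, adjusted p = 3.3e-04). Hopx stood at 102, 86.9, 330 and 482 CPM against 17.3, 12.6, 114 and 59.2 (2.27, adjusted p = 5.2e-04). Serpine2 was higher in the positive members of each library without passing (0.53, adjusted p = 0.073). The pericyte list divided: Mcam, Des, Rgs4, Ebf1 and Cspg4 were higher and Colec11 lower. Kcnj8 stood at 148, 225, 288 and 151 CPM in positive and 95.8, 222, 200 and 204 in negative members, and Abcc9 at 99.2, 244, 198 and 68.4 against 42.0, 166, 142 and 75.9. Neither difference passed (0.19 and 0.55). Higd1b did not pass either (-0.66, adjusted p = 0.38).

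Receptors followed the same split. Of 14 vasoactive receptors tested, 5 were higher: Agtr1a, Avpr1a, P2rx1, Ptger4 and Adora1. P2rx1, an ATP-gated cation channel, stood at 2.42, 21.2, 16.6 and 173 CPM against 1.86, 4.19, 8.90 and 11.1 (2.23, adjusted p = 0.019). Efnb2 (2.28, adjusted p = 1.0e-03), Nrp1 (0.84) and Pdgfa (0.97) were higher, and Angpt1 (-1.71) and the chemokine Cxcl12 (-1.74) were lower. Il33, an alarmin of fibroblasts, was at 24.2, 2.12, 13.7 and 5.88 CPM in positive and 68.6, 123, 85.2 and 163 in negative members (-3.01, adjusted p = 2.9e-03). The transcription factor Tcf21 was lower (-2.50), at 198, 46.6, 73.6 and 96.3 CPM against 466, 311, 341 and 1455, and Tbx2, Tbx3, Mef2c and Nr2f1 were higher. Imprinted growth genes including Igf2 (-1.78) and Meg3 (-1.78) were lower, 6 of 15 in all.

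**Figure D3:**
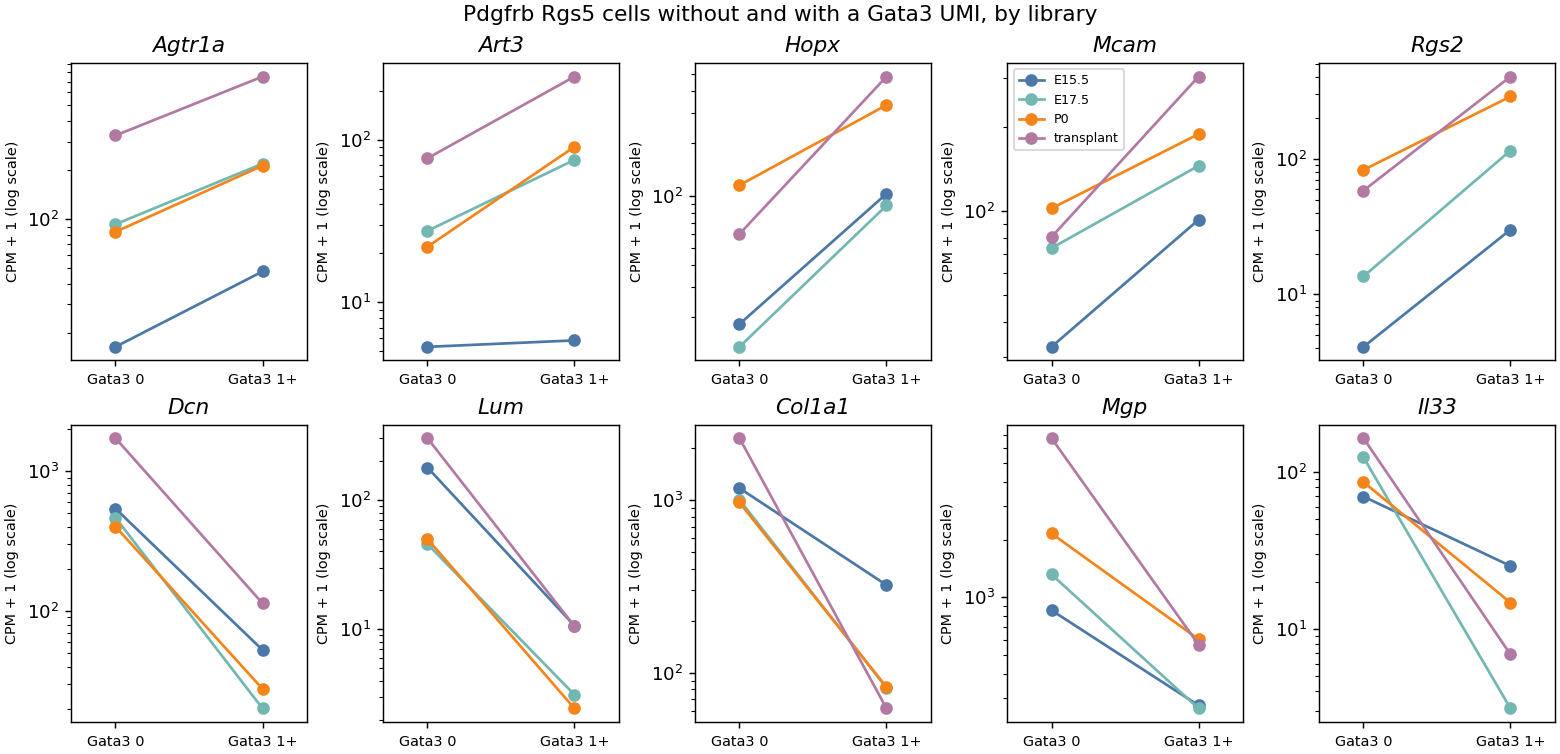
Levels of 10 genes in Gata3-negative and Gata3-positive members of each library, in CPM plus 1 on a log scale, with lines joining the values of 1 library. Agtr1a, Art3, Hopx, Mcam and Rgs2 are on the higher side in positive members, and Dcn, Lum, Col1a1, Mgp and Il33 on the lower side, in each library.

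The 10 genes with the largest excess in Gata3-positive members were Lmo7, Nrgn, Krt19, Akr1b7, Pip5k1b, Gja5, Ptger2, Hs3st3b1, Slco2a1 and Rgs2. Lmo7 stood at 126, 507, 307 and 728 CPM against 9.89, 65.6, 78.8 and 81.5 (2.78, SE 0.224, adjusted p = 1.76e-04). Rgs2 stood at 29.0, 114, 289 and 405 CPM against 3.09, 12.6, 82.0 and 57.4 (2.42, SE 0.225, adjusted p = 3.30e-04). Gja5, the gap junction protein connexin 40 known from renin and arterial cells, was at 9.67, 53.0, 41.1 and 180 CPM against 0, 12.6, 13.4 and 7.40. Ptger2, a prostaglandin E receptor, lost its call without E17.5 (2.25, adjusted p = 0.0797). Krt19, a keratin of epithelium, rested on 49, 4, 35 and 18 UMIs in the positive members. Markers of other cell types moved with the split. Stromal markers, which include matrix genes given above, stood at 1157, 322, 398 and 383 CPM in the positive and 3661, 3036, 2748 and 6951 in the negative members. Podocyte markers were at 1080, 665, 612 and 984 CPM against 932, 1718, 583 and 1198. In the transplant, proximal tubule markers were at 148 against 463 CPM and erythroid markers at 298 against 705, while at E17.5 proximal tubule markers were at 324 against 29.3. Epithelial markers were at 151, 61.5, 229 and 95.6 CPM in the positive and 18.6, 40.5, 91.6 and 55.5 in the negative members. Akr1b7 did so too, at 281, 367, 281 and 869 CPM against 27.2, 44.6, 64.9 and 146, while Ren1 was at 6.45, 161, 61.3 and 131 against 4.33, 32.1, 35.6 and 118. Endothelial markers were at 158, 225, 219 and 376 CPM against 121, 140, 117 and 148. Their part in the split was not tested.

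Gata3 encodes a factor that binds GATA sequences, and the promoters of these 10 genes were searched for such letters. The 250 bases before the start of the gene were taken from RefSeq (GRCm38.p6), which held 8 of the 10. The 4 windows that hold a match are shown, because they are the promoters of members' most Gata3-linked genes in which the letters occur. Each lies outside the transcribed part of its RefSeq gene and is written 5′ to 3′ on the gene's strand, with the match in capitals:
Lmo7, chr14:101729678-101729927, plus strand: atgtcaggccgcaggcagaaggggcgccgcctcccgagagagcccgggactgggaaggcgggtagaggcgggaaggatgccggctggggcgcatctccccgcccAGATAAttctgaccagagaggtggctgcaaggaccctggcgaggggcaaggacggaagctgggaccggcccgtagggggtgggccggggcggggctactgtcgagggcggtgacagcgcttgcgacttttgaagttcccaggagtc
Akr1b7, chr6:34412112-34412361, plus strand: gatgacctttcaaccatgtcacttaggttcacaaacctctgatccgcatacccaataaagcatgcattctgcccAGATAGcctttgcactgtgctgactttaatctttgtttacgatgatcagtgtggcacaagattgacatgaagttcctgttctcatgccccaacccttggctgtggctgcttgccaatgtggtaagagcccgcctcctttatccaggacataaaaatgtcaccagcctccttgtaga
Ptger2, chr14:44987861-44988110, plus strand: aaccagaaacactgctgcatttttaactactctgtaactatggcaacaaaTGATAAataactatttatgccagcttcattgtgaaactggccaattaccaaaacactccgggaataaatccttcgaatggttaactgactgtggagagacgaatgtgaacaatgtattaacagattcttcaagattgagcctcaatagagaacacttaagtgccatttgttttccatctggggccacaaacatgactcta
Slco2a1, chr9:103008237-103008486, plus strand: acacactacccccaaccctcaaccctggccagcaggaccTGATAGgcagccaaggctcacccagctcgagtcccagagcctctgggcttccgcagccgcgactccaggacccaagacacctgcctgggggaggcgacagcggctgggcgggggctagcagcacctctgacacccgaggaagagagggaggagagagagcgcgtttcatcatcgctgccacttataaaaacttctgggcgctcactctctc
AGATAA and TGATAA, on either strand, occurred in 2 of the 8 windows (Lmo7 and Ptger2) and in 4591 (17%) of all 27025 promoter windows of that length. After the sequences had been seen, AGATAG and TGATAG were added, which gave 4 of 8 and 7322 of 27025 (27.1%). The windows of Nrgn, Gja5, Hs3st3b1 and Rgs2 hold none of these letters. A match is a description of the sequence and not a bound site.

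The comparison of P0 with E15.5, both ICR, asks what differs in these cells between the youngest and the newborn kidney in situ. Members at P0 carried more of the potassium channel and more of most mesangial transcripts. They carried less of most transcription factors on the stromal and mural list. The medians of the pericyte, mesangial and transcription factor lists had the same sign in smooth muscle-type cells and Rgs5-negative stroma. A gene was counted as past 2-fold when the bound of its exact 95% interval nearest to 1 was at least 2-fold, among genes with 50 UMIs or more over both libraries. Of 8482 such genes 547 (6.45%) were past 2-fold, 455 (5.36%) higher and 92 (1.08%) lower at P0. On a total without mitochondrial and ribosomal genes the split was 396 higher and 166 lower. The E15.5 members were sequenced more deeply, as given above, so the threshold of 2 Rgs5 UMIs takes in cells with lower Rgs5 levels there. The median Rgs5 level per member was 213 CPM at E15.5 and 733 at P0. How far this choice of cells enters the differences was not tested. Transcripts of the dissociation response differed strongly between the libraries: 15 of 21 were past 2-fold higher at P0, with a median log2 ratio of 2.46 in members and 2.15 in all other cells. Their part in the other differences was not tested.

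The pericyte list had 7 of 18 measured genes past 2-fold higher at P0 and 15 of 18 higher, with a median log2 ratio of 0.71 against -0.05 over all genes. All other cells had 0.66 for the same list, smooth muscle-type cells 1.25 and Rgs5-negative stroma 1.18, so the rise was not particular to members. By the values given above, Kcnj8 was also higher at P0 than at E15.5 in both neighbours, and Abcc9 in smooth muscle-type cells. Abcc9 was 2.52-fold higher (2.13 to 2.99) and the cytochrome oxidase subunit Cox4i2 3.55-fold (3.00 to 4.22), from 61.9 to 220 CPM, with 224 in the E17.5 library. Kcnj8 was 2.03-fold higher with an interval that reached 1.78, so it was not past 2-fold. Higd1b was 28.5-fold higher (10.8 to 106), from 4 UMIs at E15.5. Rgs4, a regulator of G protein signalling related to Rgs5, stood at 2.10, 16.8 and 113 CPM in the 3 libraries in situ (53.8-fold, 24.4 to 148). For the channel genes and Cox4i2 the E17.5 value lay near that of P0, and for Rgs4 it lay well below.

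The mesangial list had 6 of 11 genes past 2-fold higher (median 1.37, and 0.68 in all other cells). Smooth muscle-type cells had 0.52 and Rgs5-negative stroma 0.99 for this list. Agtr1a went from 29.0 CPM to 143 (4.93-fold, 3.89 to 6.32), Serpine2 from 147 to 618 (4.19-fold, 3.77 to 4.67) and Art3 from 4.55 to 53.1 (11.7-fold, 6.63 to 22.4). Nt5e, the ecto-nucleotidase CD73, was not counted in E15.5 members (0 UMIs) and reached 45.6 CPM in P0 members, a ratio of at least 43.5 by a floor of 3 counts. Gata3 did not follow: its level was 154 CPM at E15.5 and 156 at P0, a ratio of 1.01 (0.888 to 1.16). Among receptors, 6 of 20 were past 2-fold higher, with a list median of 0.55 in members, 0.51 in all other cells and 0.69 in Rgs5-negative stroma. They include the vasopressin receptor Avpr1a (19.6-fold, 9.69 to 46.1) and the endothelin receptor Ednrb (22.9-fold, 10.2 to 63.3), both from under 10 UMIs at E15.5. Ednra, the other endothelin receptor, was 1.72-fold lower (1.41 to 2.09) at P0. Rgs2 was 12.46-fold higher (9.06 to 17.6).

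Among signals to and from endothelium, the heparin-binding growth factor Hbegf was 10.4-fold higher at P0 (7.96 to 13.8), Pdgfa 3.61-fold (2.72 to 4.86) and Efnb2 2.52-fold (2.02 to 3.17). Nrarp, a feedback gene of Notch signalling, was at 30.1, 114 and 330 CPM in the 3 libraries in situ (10.9-fold, 8.78 to 13.8). Hes1 and Hey1, direct Notch targets, were 3.33-fold (3.07 to 3.61) and 4.83-fold (3.41 to 6.997) higher, while Hey2 was 1.73-fold lower (1.24 to 2.42). Of 21 transcription factors 17 were lower at P0 and 4 past 2-fold lower (median -0.80, and -1.05 in all other cells). Smooth muscle-type cells had -0.45 and Rgs5-negative stroma -0.097. Hoxd11, a patterning gene of the kidney field, was 2.87-fold lower (2.32 to 3.57). Lum among the matrix genes was 3.92-fold lower (3.05 to 5.09), whereas Eln, elastin, was 3.48-fold higher (2.84 to 4.30).

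Glycolytic and hypoxia genes were higher at P0 for 19 of 20 (9 past 2-fold, median 1.39, and 1.09 in other cells), with Ldha at 389, 1032 and 1151 CPM in the 3 ages. Interferon and class I genes were higher for 10 of 10 measured, all past 2-fold, with a median of 2.70 in members and 2.31 in other cells. Ifitm3 was 5.47-fold higher (5.02 to 5.98). Reads of the class I genes H2-K1 and H2-D1 can be shared with near-identical copies and their values are uncertain. Cytokine and adhesion genes had 10 of 16 past 2-fold higher (median 2.96). All other cells had 12 of 18 past 2-fold higher and a median of 2.43, and Rgs5-negative stroma a median of 2.59. In members Cxcl1, a neutrophil chemokine, was 25.2-fold higher (16.8 to 39.6), and Il6 went from 0 UMIs to 41.2 CPM, at least 39.3-fold. Imprinted and fetal growth genes were lower for 14 of 15 (median -1.03, and -0.75 in other cells), with Hmga2 7.53-fold lower (5.09 to 11.5) and Mest 2.21-fold (2.06 to 2.37).

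By the rule of largest change the higher genes were Hspa1a, Osmr, Hspa1b, Nt5e, Il6, Isg15, Klf9, Rgs4, Bhlhe40 and Serpina3g. Osmr, a receptor for oncostatin M, had 2 UMIs in E15.5 members and 95.3 CPM in P0 members, and Klf9, a target of glucocorticoid and thyroid hormone, was 37.9-fold higher (24.7 to 61.6). The lower genes included Tpm3-rs7, Brinp1, Slc26a7, Crabp1, Slitrk6, Pianp, Dusp7, Mob3a and Peg10. Crabp1, a retinoic acid binding protein, was at 83.3 CPM at E15.5 and 10.8 at P0 (7.70-fold lower, 5.31 to 11.5). Hspa1a, Hspa1b and Tpm3-rs7 have near-identical copies and are uncertain.

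The transplant was set beside P0 and beside E17.5, the library whose strain label is nearest. Both comparisons share the transplant members, and the first shares the P0 members with the comparison above. In both, members of the transplant carried far more Gata3, angiotensin receptor, Serpine2 and actin filament transcripts. They carried less of the potassium channel and its companions, for Kcnj8 mainly in Gata3-positive members. Most imprinted and fetal growth genes were also lower. Against P0, 460 of 8181 genes (5.62%) were past 2-fold, 290 (3.54%) higher and 170 (2.08%) lower. Against E17.5, 312 of 7050 (4.43%) were past 2-fold, 217 (3.08%) higher and 95 (1.35%) lower. The balance of directions depends on the scaling. On a total without mitochondrial and ribosomal genes it was 187 higher and 241 lower against P0 and 157 and 157 against E17.5, and after division by the median ratio 175 and 259, and 172 and 133. The median log2 ratio of all genes was 0.24 against P0 and 0.13 against E17.5, and list medians below are to be read relative to these.

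The mesangial list was higher for 11 of 11 genes in both comparisons, 4 past 2-fold against P0 (median 0.77) and 6 against E17.5 (median 2.10). All other cells had 1.44 and 1.13 for the same list, smooth muscle-type cells 1.11 and 1.63, and Rgs5-negative stroma 1.21 and 1.38. The rise against P0 was thus not particular to members. Gata3 was at 772 CPM, 4.96-fold above P0 (4.46 to 5.51) and 4.86-fold above E17.5 (4.17 to 5.68). Agtr1a was at 629 CPM, 4.39-fold above P0 (3.93 to 4.92), and 246 of 287 members carried it. Serpine2 was at 2368 CPM, 3.83-fold above P0 (3.63 to 4.05), and Art3 at 196 CPM, 3.69-fold above (3.05 to 4.48). Hopx was 1.68-fold above P0 (1.51 to 1.87) and 8.59-fold above E17.5 (6.44 to 11.7), since P0 already had 215 CPM and E17.5 had 42.1. Gata3-positive members were also more frequent in the transplant, as given above, and Gata3 is itself on the list. Against P0 the list had a median of 0.93 within Gata3-positive members alone, with 10 of 11 genes higher. Within Gata3-negative members alone it was 0.35, with 7 of 10 higher. The medians of all genes were 0.23 and 0.20 there. The part of the changed mix of members was not tested.

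Contractile genes were higher for 12 of 12 measured against P0 (6 past 2-fold, median 1.26) and 12 of 13 against E17.5 (5 past 2-fold, median 0.87). Acta2 was at 3366 CPM, 4.20-fold above P0 (4.01 to 4.41), and Myl9, the regulatory myosin light chain, was 4.66-fold above (4.41 to 4.93). In the same comparison with P0 the list had medians of -0.04 in smooth muscle-type cells, -0.03 in Rgs5-negative stroma and 0.58 in all other cells, where 14 of 18 genes were higher. Within Gata3-positive members alone it was 1.23 and within Gata3-negative members alone 0.80, a division of this comparison that was chosen after seeing the data, here and below. The smooth muscle-type gate itself asks for Acta2. More transplant cells than others were near the renin threshold, with 15 members at 5 to 9 Ren1 UMIs against 8 at P0, and Akr1b7 was at 664 CPM. Cells left out only for more than 1 Myh11 UMI were also more numerous, 34 against 12 at P0. The part of cells near these thresholds was not tested.

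The channel and its companions went the other way. Abcc9 was at 70.5 CPM, 2.39-fold below P0 (1.97 to 2.91) and 2.79-fold below E17.5 (2.25 to 3.48). Cox4i2 was 1.89-fold (1.62 to 2.21) and Kcnj8 1.45-fold (1.27 to 1.66) below P0. Within Gata3-positive members alone Kcnj8 was below P0, while Gata3-negative members had about the same level in both libraries, as given above. Abcc9 was below P0 in Gata3-positive and in Gata3-negative members. By the values given above, smooth muscle-type cells also had less Abcc9 and Kcnj8 in the transplant than at P0, and stroma had less Kcnj8. Other genes of the pericyte list were higher in the transplant, among them Des, the intermediate filament desmin (2.87-fold, 2.52 to 3.28), and Mcam (1.69-fold, 1.47 to 1.93). The list as a whole had 8 genes higher and 10 lower in either comparison. Its median against P0 was -0.01 in members, 0.94 in smooth muscle-type cells and -1.38 in Rgs5-negative stroma.

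Receptors differed in both directions. P2rx1 was at 127 CPM, 10.1-fold above P0 (7.15 to 14.8). Its log2 difference from P0 was 3.35 in Gata3-positive members alone and 0.38 in Gata3-negative members alone, where it was not past 2-fold. Ptger4, a prostaglandin E receptor, was 3.69-fold above P0 (2.76 to 4.97). Agtr2, the type 2 angiotensin II receptor, was 4.19-fold below P0 (2.88 to 6.29) and 3.997-fold below E17.5 (2.62 to 6.23). Notch targets were lower: Nrarp 7.93-fold below P0 (6.30 to 10.1), Hey1 8.35-fold (4.94 to 15.2) and Hey2 7.71-fold (3.13 to 24.6). The Notch list had 8 of 11 lower and 4 past 2-fold lower against P0 (median -0.62), -1.04 and -1.06 in Gata3-positive and Gata3-negative members alone, and -0.58 in all other cells. Notch3 itself was 2.44-fold above P0 (1.96 to 3.05). Eng, a coreceptor for BMP9 and TGF-beta, was at 269 CPM, 6.76-fold above P0 (5.52 to 8.33). It is also an endothelial gene, and endothelial markers summed to 311 CPM in transplant members against 165 at P0. The log2 difference of Eng from P0 was 3.09 in Gata3-positive members alone and 0.88 in Gata3-negative members alone, where it was not past 2-fold.

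Basement membrane genes were higher in the transplant for 15 of 22 against P0 (median 0.69, and 0.73 in other cells) and 17 of 21 against E17.5 (0.81 and 0.67). Col4a1, a chain of type IV collagen, was 1.68-fold above P0 (1.59 to 1.77), and Sparc, a collagen-binding matrix protein, 1.95-fold (1.87 to 2.03). Neither was past 2-fold against P0. Of 20 cell division genes 20 were lower than at E17.5 and 3 past 2-fold lower, among them Top2a (3.18-fold, 2.70 to 3.76). The median was -0.96 in members and -1.72 in all other cells, where 18 were past 2-fold lower. Against P0 18 of 20 were lower in members, none past 2-fold, with a median of -0.35 that changed sign to 0.53 after thinning to 3000 UMIs per cell. Glycolytic and hypoxia genes were lower for 17 of 20, with 10 past 2-fold lower against P0 and 5 against E17.5 (medians -1.30 and -0.98, and -1.14 in other cells against P0). Ldha was 2.49-fold below P0 (2.31 to 2.69), and Egln3, a HIF target, 10.6-fold below (5.22 to 25.1).

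Imprinted and fetal growth genes were lower for 12 of 15 against P0 and 13 of 14 against E17.5, with 7 and 8 past 2-fold and medians of -1.06 and -1.72. All other cells had -1.19 and -1.48. Igf2, the fetal growth factor, was at 705, 777, 392 and 14.7 CPM, the transplant 26.6-fold below P0 (18.3 to 40.2). Dlk1, a paternally expressed inhibitor of differentiation, was at 117, 121 and 52.7 CPM in the kidneys in situ and at 0 in the transplant, at least 33.4-fold below P0 and at least 76.7-fold below E17.5. Reln, a secreted matrix glycoprotein, was at 43.0, 53.8 and 45.6 CPM and likewise at 0 UMIs, at least 28.9-fold below P0. Cdkn1c, an imprinted inhibitor of the cell cycle, was 1.72-fold above P0 in contrast, at 809 CPM. The order of Igf2 levels over the 4 libraries put E15.5 and E17.5 close together, P0 below them and the transplant far below.

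The other genes by the rule of largest change were, higher than P0, Ccl6, Angptl4, P2rx1, Anxa1, Abi3, Fam212a, Adamts5, Cpne7, Igf1 and Eng. Angptl4, an inhibitor of lipoprotein lipase, was at 25.5, 11.8 and 14.2 CPM in the kidneys in situ and at 202 in the transplant (14.2-fold above P0, 10.3 to 20.1). The log2 difference from P0 was 3.80 in Gata3-positive and 3.63 in Gata3-negative members. Adamts5, an aggrecan-cleaving protease, was 6.69-fold above P0 (5.99 to 7.49), with a log2 difference of 2.51 in Gata3-positive members alone and 1.17, not past 2-fold, in Gata3-negative members alone. The anti-inflammatory annexin Anxa1 was 7.88-fold above P0 (6.94 to 8.98). Ccl6 rested on 2 UMIs at P0. Lower than P0 were Dlk1, Reln, Asb4, Dkk1, Il6, Eif3j2, Noct, Hspa1b, Creb5 and Hsph1. Transcripts of the dissociation response, such as Hspa1b, moved with the comparison: 15 of 21 were lower than at P0, 8 past 2-fold, with a median of -0.69 in members and -0.43 in all other cells. Against E17.5, 14 of 21 were lower and 5 past 2-fold (median -0.43, and 0.03 in other cells). Their part in the other differences was not tested. Against E17.5 the higher genes were Ccl6, Angptl4, Ctgf, Cav2, Clec14a, P2rx1, Hopx, Hrct1, Fmo2 and Cpe. The lower ones were Dlk1, Reln, Dkk1, Vip, Atf3, Plagl1, Mest, Hist1h1b, Hist1h1e and Meg3. Ctgf, a matricellular target of TGF-beta and YAP, was 10.7-fold above E17.5 (7.71 to 15.3), with 127 CPM already at P0. Clec14a is an endothelial gene and rested on 2 UMIs at E17.5.

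**Figure D4:**
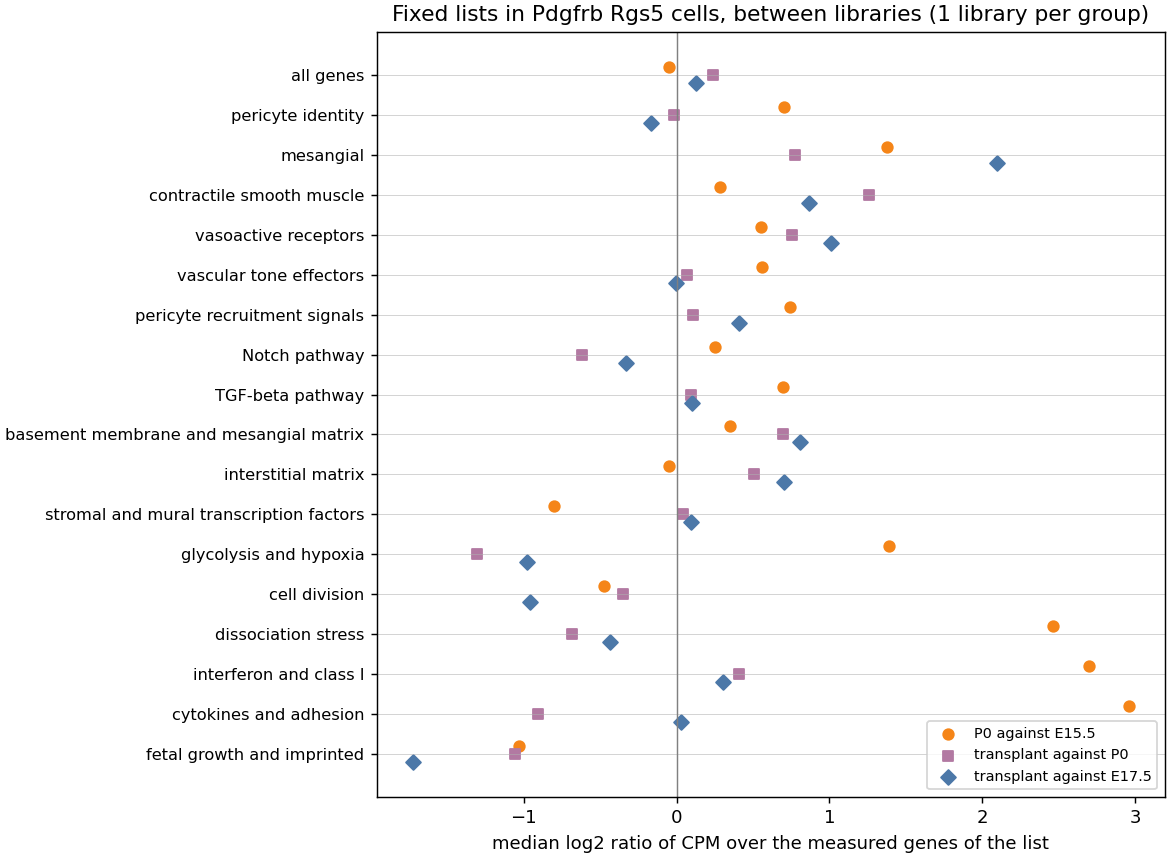
Median log2 ratio of 17 gene lists and of all genes in members, for P0 against E15.5, the transplant against P0 and the transplant against E17.5. The comparisons share libraries. The mesangial list lies above the median of all genes in each, at 1.37, 0.77 and 2.10, and the imprinted list below it, at -1.03, -1.06 and -1.72.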

How the data were processed

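Droplet single-cell 3′ libraries of 4 mouse kidney groups, 1 library each, were analysed from the deposited UMI count matrices, which the authors made with Cell Ranger 3.1.0 on GRCm38 per the submitters' processing notes. Per the file headers, the E15.5 and P0 matrices come from version 3.0.2 and those of E17.5 and the transplant from 3.1.0. The counts are whole numbers per gene and barcode, not normalized. The libraries hold 4158, 5551, 10810 and 7670 barcodes with 92387054, 42430540, 99068204 and 57855356 UMIs (E15.5, E17.5, P0, transplant). A matrix that joins 3 libraries was left out. The members and the 17 gene lists were chosen with earlier results of these data known, so no count over a list is independent support.

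UMIs of members were summed per library and divided by the members' total (CPM). Between libraries there is no replicate and no test. Ratios have exact conditional binomial 95% intervals, Poisson intervals were used for levels, and both cover counting error only. List medians and list counts use genes with at least 20 UMIs over both libraries. The medians have 0.5 counts added, and a fold against 0 UMIs uses a floor of 3 counts. Between cell types, sums of at least 10 cells were tested with edgeR 4.0.16 (R 4.3.3; quasi-likelihood test, TMM, filterByExpr, library as block, Benjamini-Hochberg adjusted p of 0.05). The library is the pairing, since both sums come from the same library. Standard errors are the log2 fold change divided by the square root of F, an approximation. DESeq2 1.42.0 was an alternative. Cells were thinned to 3000 UMIs. Scrublet (scanpy 1.11.5) gave doublet scores, and removal of the highest scores, 0.8% per 1000 cells, was an alternative. No doublet was removed in the values given. The scripts were checked on simulated data. Each p-value sets the difference between cell types against the residual spread of the 4 libraries, after the block takes up the spread between libraries. The smooth muscle-type and stromal contrasts come from the same fit, so their residual covers members and both neighbours. These libraries differ in age, strain and site.

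Genes were named by rule. Between libraries these were the 10 highest and the 10 lowest ratios, by the interval bound nearest to 1, among genes with at least 50 UMIs that were at least as high in members as in other cells in the library where they were higher. Between cell types these were the 10 largest changes each way among genes past the threshold with 1 sign in all 4 libraries. Gate, mitochondrial, ribosomal, globin and sex-linked genes stayed out, and genes of the lists could be named with their values. A few genes that the rule or the lists name are not reported here. Alternatives were another scaling, mean over cells, depth, gate thresholds, doublets, other-type UMIs, filters, DESeq2, no block, and leaving out a library.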

Additional observations from a re-analysis of the deposited data

Results flagged for a closer look

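Transcripts of the reporter tdTomato were counted in the P0 library, whose genotype label is wild type. The P0 members held 1090 tdTomato UMIs (368 CPM), and all other P0 cells held 6885 (75.3 CPM). The members of the other libraries held 0, below floors of 1.05 CPM at E15.5, 2.52 at E17.5 and 1.58 in the transplant. What marks these cells was not tested.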

How the results depend on the processing

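Of 72 alternative counts of genes past 2-fold, 52 stayed within 1.5 times the reported count, as did 60 of 90 edgeR counts. Of 493 list medians 463 moved by less than the limit set, 25 moved and 5 reversed. Only medians of at least 0.5 in either direction were counted as reversed, and many smaller ones also changed sign. For P0 against E15.5, leaving out members with UMIs of other types, globin included, took the Notch list from 0.25 to -0.87. Only 3 cells at E15.5 were left in that setting. The basement membrane list went from 0.35 to -1.11 against the same cells. After thinning to 3000 UMIs the Notch list was at -0.11 and the basement membrane list at -0.37. The direction of a small list median is therefore not stable. Among named genes 714 of 753 ratios and 807 of 849 edgeR results kept their call, and the cause of the losses was not tested. The share of members depends on the threshold and depth: with Rgs5 at 4 UMIs or more it was 2.16, 2.43, 2.88 and 3.04%, at 3000 UMIs 0.791, 2.13, 2.04 and 3.09% (E15.5, E17.5, P0, transplant), and with at least 1000 genes 5.11% in the transplant. Leaving out members with UMIs of other types, globin included, left 0.0842% at E15.5 (3 cells) and 2.92% in the transplant. Against these 3 cells, 21 genes were higher and 41 lower at P0, and the medians of the vasoactive receptor (-0.92), tone effector (-1.01), recruitment signal (-1.15) and TGF-beta (-0.65) lists reversed.

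For P0 against E15.5, thinning gave 84 higher and 8 lower genes. The lower count was 60 with Rgs5 at 4 or more, 153 as a mean over cells, 166 without mitochondrial and ribosomal genes and 146 with a minimum of 1 UMI. For the transplant against P0, thinning gave 53 higher and 67 lower, Rgs5 at 4 or more 187 higher, the total without mitochondrial and ribosomal genes 187 higher, and division by the median ratio 175 higher and 259 lower. Against E17.5, thinning gave 44 and 21, Rgs5 at 4 or more 106 and 60, and the lower count was 157 without mitochondrial and ribosomal genes and 150 with 1 UMI. The interstitial matrix median against E17.5 reversed to -0.15 after thinning.

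The labels carry no replicate numbers, and the block is the library. With no replicate block, edgeR's higher and lower counts were 45 and 179 against smooth muscle-type cells, 41 and 42 against stroma and 2 and 20 between Gata3-positive and Gata3-negative members, where all 10 named higher genes lost their call. Thinned, they were 107 and 141, 135 and 94, and 75 and 108. With no filter beyond 1 UMI, 582 genes were higher than in smooth muscle, 608 higher and 366 lower than in stroma, and 676 higher and 605 lower by Gata3. DESeq2 called 196 higher by Gata3. Leaving out each library in turn gave 105 to 374 higher and 246 to 585 lower against smooth muscle, 90 to 351 and 51 to 278 against stroma, and 136 to 327 and 174 to 332 by Gata3.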
